A study of Caenorhabditis elegans with 2 samples.

Results

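DMD-9 is a protein of the DM-domain family, whose founding members are doublesex of the fly and MAB-3 of the worm. The peaks described here are those sites of a tagged DMD-9 protein that lay in front of a single transcription direction: promoter peaks with protein-coding 5' ends on 1 strand only. A peak was a member when its summit fell from 1000 bp upstream to 200 bp downstream of the annotated 5' end of protein-coding genes on 1 strand and none on the other, and lay more than 100 bp from any tRNA gene. Of the 1379 peaks of the joint list, which the authors made from the reads of both replicates, 372 met this rule. Another 176 peaks had 5' ends on both strands, 221 lay within 100 bp of a tRNA gene, and 610 were elsewhere.

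The data were chromatin immunoprecipitation with sequencing (ChIP-seq), which recovers the DNA bound by a protein with an antibody and maps where along the genome it came from. The single group was *Caenorhabditis elegans* strain RJP5357, whose allele rp169 on chromosome IV is a CRISPR insertion that joins GFP, an auxin-inducible degron (AID), a TEV protease site and 3xFLAG to dmd-9. It had 2 biological replicates of whole L4 larvae at 48 hours, synchronised as starved L1 larvae after bleaching, and an anti-GFP antibody was used on sonicated chromatin. Per the labels the sex was not recorded, and whole animals give an average over all their tissues. There was no other group to compare it with, and the depth of either replicate is unknown because only peak lists were used.

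DM-domain proteins bind DNA through a zinc-coordinating domain and are best known for roles in sexual differentiation and in neurons. A promoter lies upstream of the gene it serves, and in worms many transcripts have their original 5' part replaced by a spliced leader, a process named trans-splicing. The annotated 5' end of such a gene can therefore lie downstream of where RNA polymerase starts. A promoter between genes that run apart can serve both of them, whereas the peaks described here had candidate genes on 1 side.

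The sequences at the summits of the strongest members are printed first, since base composition was the feature that members shared most clearly. They run 50 bp to each side of the summit, are written in the direction of transcription of the gene, and come from the RefSeq genome sequence of WBcel235, whose coordinates equal those of ce11. Capitals mark the 15 6-base words (on either strand) whose share of member windows most exceeded their share of background windows. The background windows were placed 268 bp upstream of all protein-coding 5' ends. The 8 members shown are among the 10 strongest.
mog-4 (chrII:14561801-14561901, minus strand): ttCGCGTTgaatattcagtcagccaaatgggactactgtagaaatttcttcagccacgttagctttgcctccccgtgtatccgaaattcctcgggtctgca
cnk-1 (chrIII:10270881-10270981, plus strand): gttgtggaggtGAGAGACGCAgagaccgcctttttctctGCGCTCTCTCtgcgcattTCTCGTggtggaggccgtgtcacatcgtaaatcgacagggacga
eel-1 (chrIV:3050430-3050530, minus strand): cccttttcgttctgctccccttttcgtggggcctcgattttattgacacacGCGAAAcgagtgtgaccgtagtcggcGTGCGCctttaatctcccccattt
rpl-3 (chrIII:3867519-3867619, plus strand): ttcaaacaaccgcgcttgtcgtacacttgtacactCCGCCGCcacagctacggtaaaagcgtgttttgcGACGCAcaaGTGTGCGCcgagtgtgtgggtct
mtcu-2 (chrII:10033631-10033731, minus strand): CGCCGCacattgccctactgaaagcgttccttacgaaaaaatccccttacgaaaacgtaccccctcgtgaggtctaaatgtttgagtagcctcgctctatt
rpl-35 (chrIII:7854645-7854745, plus strand): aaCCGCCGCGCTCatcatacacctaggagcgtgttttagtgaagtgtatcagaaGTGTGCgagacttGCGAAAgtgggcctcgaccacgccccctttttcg
H41C03.3 (chrII:5844761-5844861, plus strand): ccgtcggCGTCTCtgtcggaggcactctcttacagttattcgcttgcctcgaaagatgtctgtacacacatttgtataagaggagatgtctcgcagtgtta
cox-5A (chrIII:12905171-12905271, plus strand): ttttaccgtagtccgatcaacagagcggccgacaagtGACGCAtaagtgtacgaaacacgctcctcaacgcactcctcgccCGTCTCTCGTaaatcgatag
Their G and C content ran from 47.5% at mog-4 to 56.4% at cnk-1. Between 6 (mog-4) and 12 (cox-5A) CG dinucleotides stood in each window. At rpl-3, rpl-35 and cnk-1 more than 20 bases of the window were part of the marked words, and at mog-4, mtcu-2 and H41C03.3 only 6 were.

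Signal, the peak caller's value of enrichment, ran over the members from 2.11 to 682.7, with a median of 88.5 and quartiles of 73.2 and 133.1. The strongest member lay 252 bp upstream of mog-4 (WBGene00003392), which encodes a splicing helicase named for its part in germline sex determination. Its joint signal was 682.7, with 320.8 in replicate 1 and 374.1 in replicate 2. The peak upstream of rpa-2, a subunit of the single-strand DNA binding protein RPA, had a joint signal of 598.5 with 252.0 in replicate 1 and 346.9 in replicate 2, and its summit was 642 bp from the 5' end. Both replicates thus had these peaks far above their own member medians of 45.7 and 48.8. The sequence of each of these 2 peaks has 7 other copies in the genome, by the copy search described below.

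The next members led the list at genes of unrelated functions. At cnk-1, a scaffold of Ras signalling, the joint signal was 521.2, with 259.8 and 260.7 in replicates 1 and 2. At eel-1, a HECT-type ubiquitin ligase, it was 499.0, with 222.0 and 281.7 in the replicates. At rpl-3, a protein of the large ribosomal subunit, it was 476.5, with 240.7 and 238.7. Joint values came close to the sum of the 2 replicate values at each of these genes, and the joint list draws on both. At mtcu-2, a homolog of a mitochondrial tRNA modification protein, the joint signal was 387.2 with 187.8 in replicate 1 and 189.5 in replicate 2. The large-subunit gene rpl-35 had 375.4, with 170.0 and 200.2 in the replicates. A peak 966 bp upstream of H41C03.3, an uncharacterized protein gene, had 375.1, with 177.7 and 189.8. The replicate values of these peaks differed by much less than the gap to the typical member.

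Below them stood a mixed group of 12 members with joint signals from 232.6 to 342.5, whose annotated products cover respiration, protein folding and nuclear pores. The gene cox-5A, for a subunit of cytochrome c oxidase, had a joint signal of 333.7, with 157.5 in replicate 1 and 177.5 in replicate 2. At C47E8.4, a homolog of FAM50, replicate 2 (211.9) was higher than replicate 1 (114.7). The gene cdc-48.1, for an ATPase that extracts ubiquitinated proteins from membranes and complexes, had a joint signal of 298.2, with 164.7 in replicate 1 and 134.4 in replicate 2. Also in this group were F59C6.18 (joint signal 342.5), K12H4.5 (320.4), Y62F5A.12 (302.8), W04C9.4 (297.2), the prolyl isomerase gene pinn-1 (282.0), Y39B6A.43 (251.8), eelo-2 (240.6), rps-24 (233.6) and the nucleoporin gene npp-6 (232.6). The 20 strongest members were spread over chromosomes I to V, and the strongest on X was at pdi-6, a protein disulfide isomerase gene, with a joint signal of 229.0 and replicate values of 111.0 and 116.9.

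The replicates gave values of like size for most members. In replicate 1 a call overlapped 367 members and in replicate 2 one overlapped 369. Across the 364 members with a call in both, Pearson's r of the log10 values was 0.649 and Spearman's rho of the signals 0.606. These are descriptions over peaks chosen from both replicates together, and peaks are not replicates. The median log2 ratio of replicate 1 to replicate 2 was −0.13, and replicate 1 was higher at 142 members. The lists were not scaled to each other. The signals stood within a factor of 2 of each other at 328 of the 353 members (92.9%) with no stronger second call in either replicate. Member quartiles were 33.9 and 65.6 in replicate 1 and 37.4 and 70.4 in replicate 2. So narrow a range by itself brings many values within a factor of 2.

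**Figure D1:**
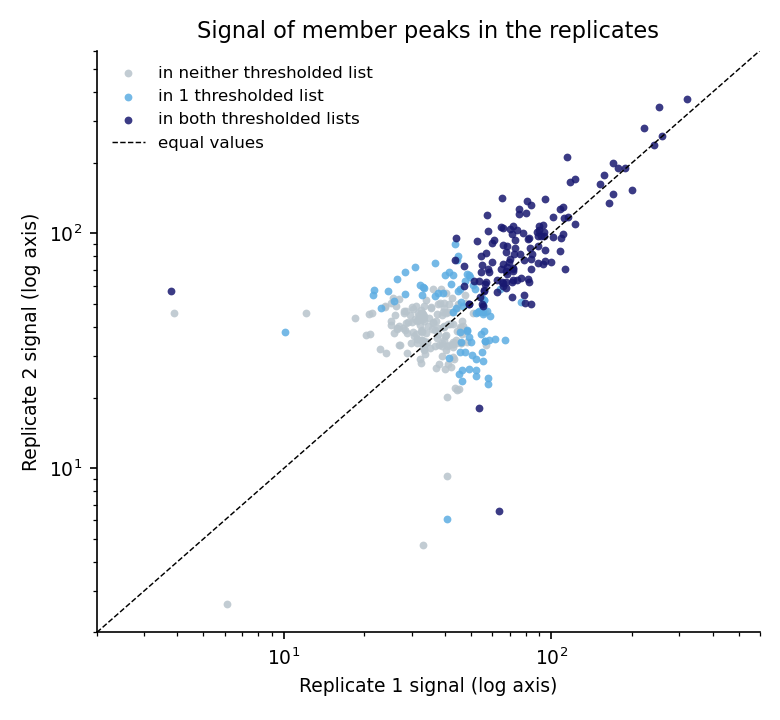
Signal of 364 member peaks in replicate 1 (x axis) and replicate 2 (y axis), both on log axes, coloured by presence in the replicates' own thresholded lists. The strongest members lie near the line of equal values (mog-4 at 320.8 and 374.1), the bulk forms a cloud around 45.7 and 48.8, and a few points fall far from the line.

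Of the 353, 25 differed by more than a factor of 2, and 12 further members had a stronger second call in a replicate. At 5 of the 6 most unequal members the calls were split. At kel-3, a gene with a BTB domain, replicate 1 had 3.78 and replicate 2 had 56.8, but a second overlapping call of replicate 1 had 55.0. At kvs-3, a potassium channel subunit gene, replicate 1 had 63.6 and replicate 2 had 6.56, beside a second call of 55.9 in replicate 2. The same held at tba-7 and tbb-2, both tubulin genes, where the low replicate 2 values of 6.07 and 4.72 stood beside second calls of 46.1 and 33.2. At Y50D4C.5 the replicate 1 value of 3.87 stood beside a second call of 31.6. Only syx-18 among the 6 most unequal members had no such second call: replicate 1 had 12.1 and replicate 2 had 45.9.

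Overlapping calls also made the lowest joint values. In all, 29 members (7.80%) overlapped another joint peak, with summits 199 to 219 bp apart. In 15 of these the member was the weaker call, and those had joint signals from 2.11 to 32.6. They were 15 of the 16 members with a signal under 50. Without them the lowest member had 47.3 and the median was 91.3. A pair at mcm-4, a subunit of the replicative helicase, had 91.5 and 21.2, and one at Y41C4A.22, the member of lowest signal, had 79.0 and 2.11.

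Presence in the replicates' own thresholded lists split the members by strength. Of 372 members, 174 (46.8%) overlapped a peak of the replicate 1 list and 161 (43.3%) one of the replicate 2 list, and 126 (33.9%, exact 95% interval 29.1 to 38.9) overlapped both. Another 163 (43.8%) were in neither list. Among the strongest 124 members 114 were in both lists, among the middle 124 it was 9, and among the weakest 124 it was 3. The conservative list, made from the 2 replicates against each other, held 308 members (82.8%), among them 117 of the 163 in neither replicate list. A q value at or under 0.05 was given to 196 members (52.7%), and 138 (37.1%) had a global irreproducible discovery rate (IDR) of 0.001 or under. Of the whole joint list, members included, 40.0% of peaks were in the replicate 1 list, 37.9% in the replicate 2 list and 26.7% in both. In neither replicate list were 48.9% of them, and 79.99% were in the conservative list. A q value at or under 0.05 was given to 48.7% of them, and 32.2% had a global IDR of 0.001 or under. The members' shares thus lay above those of the whole list, apart from the share in neither list, which lay below. The whole list's 26.7% in both lists was outside the members' interval of 29.1 to 38.9. The differences were not tested.

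Strength lay between that of the other kinds of peak. The median signal was 88.5 at members, 113.2 at peaks with 5' ends on both strands, 96.6 at peaks within 100 bp of tRNA genes and 76.9 at the other joint peaks. The share in both replicate lists was 33.9% at members, 44.3% at peaks with 5' ends on both strands, 30.3% at peaks by tRNA genes and 15.9% at the others. Quartiles of the classes overlapped widely, and these differences were not tested.

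Summits lay at a range of distances within the window of the rule. The median position was −268 bp relative to the 5' end, with quartiles of −478 and −125.5 bp. Of 372 members, 328 (88.2%, exact 95% interval 84.4 to 91.3) lay upstream and 44 at or downstream. The rule bears on this share, since 83.3% of the length of its window is upstream. The stretch from 100 to 500 bp upstream held 207 (55.6%), and 86 (23.1%) lay more than 500 bp upstream. The fullest bins were 200 to 100 bp upstream with 62 members and 300 to 200 bp upstream with 60. The first 100 bp upstream held 35. Peaks with 5' ends on both strands stood nearer, at a median of −124 bp to the nearest 5' end, but the rule that sets them apart acts on that distance too.

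**Figure D2:**
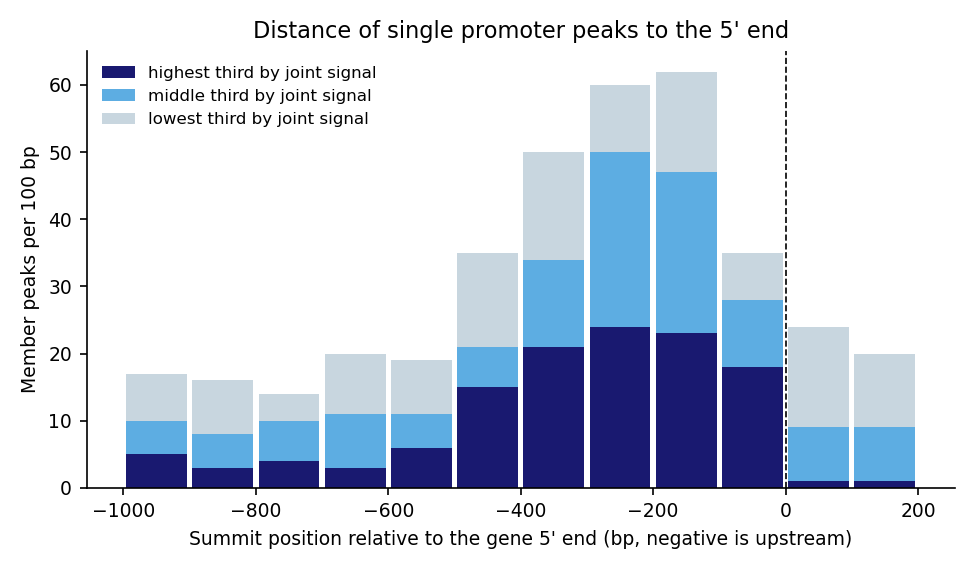
Number of member peaks per 100 bp (y axis) by summit position relative to the gene 5' end (x axis, negative is upstream), stacked by joint signal in 3 groups of 124 members (highest, middle and lowest). The bins from 300 to 100 bp upstream hold 60 and 62 members, and the 124 strongest members are nearly all to the left of 0, with 2 downstream.

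Position and strength moved together. Among the strongest 124 members 122 (98.4%) lay upstream, among the middle 124 it was 108 (87.1%), and among the weakest 124 it was 98 (79.0%, below the 83.3% of the window that is upstream). From 100 to 500 bp upstream lay 66.9% of the strongest, 55.6% of the middle and 44.4% of the weakest. Members in both replicate lists lay upstream in 122 of 126 cases (96.8%), and those in neither list in 132 of 163 (81.0%). Highest of all was the median signal of members within 100 bp upstream, 119.3, as against 75.7 within 100 bp downstream.

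Downstream summits were weak, with few exceptions. Of the 24 members from 0 to 100 bp downstream 3 were in both replicate lists, and of the 20 from 100 to 200 bp downstream it was 1. The strongest downstream members, chosen after their values were seen, were ints-4 (184.3, 33 bp downstream), a subunit of the Integrator complex, and F28F8.7 (161.1, 162 bp downstream). Measured from the nearest 5' end of any annotated transcript, 10 downstream members moved nearer and the median stayed at −268 bp.

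At the edges of the window the members named here had signals from 72.0 to 134.1, beside quartiles of 73.2 and 133.1 over all members. The farthest upstream were dhs-8 (−988 bp, signal 122.2), Y53F4B.27 (−983 bp, 76.4) and mrpl-23 (−979 bp, 134.1). The farthest downstream were gei-4 (199 bp, 87.1), F47B8.14 (193 bp, 72.0) and casy-1 (186 bp, 73.2). Just beyond the limits lay peaks at T05G5.5 (−1003 bp, 63.9), acer-1 (−1009 bp, 73.0) and gly-10 (−1012 bp, 68.7) on the upstream side. On the downstream side they lay at csnk-1 (211 bp, 7.64), rpl-18 (219 bp, the same peak as at gly-10) and K10D3.4 (226 bp, 83.6). The limits thus cut through a continuous run of peaks.

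Most summits lay between genes. Of 372 members, 285 (76.6%) had their summit outside all protein-coding genes, 39 (10.5%) in a coding exon, 25 (6.72%) in a UTR and 23 (6.18%) in an intron. The median signal was 94.6 outside genes and 72.4 in coding exons. A summit lay in the body of another protein-coding gene at 44 members. Within 100 bp of another small RNA gene stood 17 members, of which 11 were by snoRNA genes, 5 by snRNA genes and 1 by a miRNA gene. Among them were the strong peaks of H41C03.3 (snRNA) and F59C6.18 (snoRNA), which thus had a small RNA gene nearer than the protein-coding 5' end. Without the 17, the median signal was 88.2.

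By gene, 371 of 19973 protein-coding genes had a member summit in their window, which is 1.86% of genes. Of these, 357 had 1 member, 14 had 2 and 0 had 3 or more, and 13 members had 2 genes on the same strand in their window. Separate peaks, named after their values were seen, stood at eel-1, with signals of 499.0 and 152.0 at −376 and −765 bp, and at ain-1, a gene of the microRNA silencing machinery, with 118.7 and 74.2 at −964 and 122 bp. In the other 12 genes the second peak was an overlapping call.

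Genes with a member were longer and better annotated than the average gene. Their median length was 2809 bp and they had a median of 7 exons, as against 2027 bp and 6 exons over all protein-coding genes. More than 1 annotated transcript was present in 46.9% of them and in 29.8% of all. A gene name beyond the sequence name was held by 68.2% of them and by 54.6% of all, and RefSeq called 4.58% of them uncharacterized, as against 9.34% of all. The nearest upstream gene ran on the same strand at 63.6% of them and at 54.6% of all genes, a value that the rule itself favours by asking for 5' ends on 1 strand.

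Several lists of genes used by most cells, such as those for ribosomal proteins, DNA replication and nuclear transport, had shares above the 1.86% of all genes, while the proteasome and aminoacyl-tRNA synthetase lists had no member. Chemoreceptor and innate immunity lists had shares below 1.86%. No test was made of any list, and the exact 95% intervals cover counting error only. The lists without replicate 1 and without replicate 2 gave 170 and 175 genes in place of 371, so counts are also given for them, in that order. Cytosolic ribosomal protein genes came first, with 12 of 83 (14.5%, interval 7.70 to 23.9), and 10 and 8 in the single lists. Their median signal was 119.3, above the 88.5 of all members. After rpl-3 and rpl-35, the strongest were rps-24 (joint 233.6, replicate 1 94.7, replicate 2 140.3) and rps-28 (178.2, 81.5 and 95.1), both of the small subunit. All 12 had a call in both replicates, from 32.4 to 240.7 in replicate 1 and from 43.2 to 238.7 in replicate 2, and 2 of them, rpl-41.2 and rps-26 (named after their values were seen), were in neither thresholded list. The list includes rpl-24.2 (131.1, named here for its product), which RefSeq calls a putative ribosome biogenesis protein. A further 19 genes of the list had a peak with 5' ends on both strands. Mitochondrial ribosomal protein genes had 4 of 70 (5.71%): mrps-35 (182.1), mrpl-23 (134.1), mrpl-15 (94.6) and mrpl-49 (64.9). Their interval reached down to 1.58%, below 1.86%, and each single list had 2. The peak at mrpl-23 was within 100 bp of a snoRNA gene.

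Replication and nuclear transport genes followed. DNA replication and repair had 6 of 47 (12.8%, interval 4.83 to 25.7), led by rpa-2. The clamp gene pcn-1 (PCNA) had a joint signal of 170.3, with 83.3 in replicate 1 and 87.0 in replicate 2, so its values were alike. The helicase subunit gene mcm-4 (91.5) and mcm-3AP (89.0) were weaker, and RefSeq calls the product of mcm-3AP only a PCI domain-containing protein. At mcm-4 replicate 1 (58.1) was above replicate 2 (24.2). Without replicate 1 the list had 2 genes with a member, and without replicate 2 it had 5. Nuclear transport had 4 of 43 (9.30%): the nucleoporin genes npp-6 (232.6), npp-13 (114.1) and npp-8 (112.2) and the importin gene imb-3 (134.0). Without replicate 2 it had 2.

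Protein synthesis, folding and traffic were also represented. Translation factors had 3 of 44 genes (6.82%), the initiation factor 3 subunits eif-3.C (163.1) and eif-3.B (146.7) and the elongation factor eef-1A.2 (113.6). Chaperones had 5 of 65 (7.69%). The Hsp70 genes hsp-3 of the endoplasmic reticulum (193.8, with 107.7 and 84.4 in replicates 1 and 2) and hsp-1 (186.9, with 88.7 and 97.2) led them, followed by dnj-9 (175.8) and the prefoldin gene pfd-3 (74.2). Secretory and vesicle traffic had 7 of 118 (5.93%), with vps-39 (196.7), the translocon gene sec-61.G (143.4), vps-22 (119.3) and the proton pump gene vha-13 (101.2). Without replicate 1 that list had 2 genes, and without replicate 2 it had 6, while chaperones had 3 in each and translation factors 3 in each. Each of these 3 lists lay above 1.86%, and the interval of the translation factors, 1.43 to 18.7, reached below it.

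Among RNA and energy genes, the intervals of the splicing and oxidative phosphorylation lists lay above 1.86%, and those of the other 3 lists reached below it. Splicing had 4 of 54 genes (7.41%): mog-4, the Sm protein gene snr-4 (150.2, within 100 bp of an snRNA gene), mog-3 (88.2) and lsm-6 (69.6). Oxidative phosphorylation had 5 of 70 (7.14%), led by cox-5A, cox-6A (132.5), cox-5B (109.4) and nduf-9 (69.7). The peaks at cox-6A and nduf-9 were within 100 bp of an snRNA and a miRNA gene, and without such peaks 3 of the 5 were left. RNA helicases and ribosome biogenesis had 2 of 26, pro-1 (121.4) and nol-56 (93.7), and 1 and 0 in the single lists. Transcription machinery had 4 of 71 (5.63%): rpb-11 (115.2), a subunit of RNA polymerase II, taf-12 (77.0), taf-3 (76.6) and mdt-1.2 (61.1). Its interval, 1.56 to 13.8, reached below 1.86%, and the single lists had 1 and 0. Sex determination had 2 of 23, mog-4 and mog-3, which are the same genes as in the splicing list. In each single list 2 splicing genes, 3 of oxidative phosphorylation and 1 of sex determination were left.

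Cell cycle and chromatin lists came nearer to the background of 1.86%. Cell cycle had 3 of 67 genes (4.48%), cdc-48.1, the kinetochore gene knl-3 (135.6) and cdk-7 (69.2). The ubiquitin list had 2 of 71, ubc-3 (133.9) and ubxn-2 (81.0), and did not hold eel-1. Histones had 2 of 73, the histone H4 gene his-37 (222.7) and the linker histone gene his-24 (103.8). Histone genes occur in near-identical copies, but the copy search described below found no second copy of the peak sequence at either of these 2 genes. All 3 intervals include 1.86%, and the single lists had 2 and 2 cell cycle genes, 1 and 1 of the ubiquitin list and 2 and 1 histone genes.

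**Figure D3:**
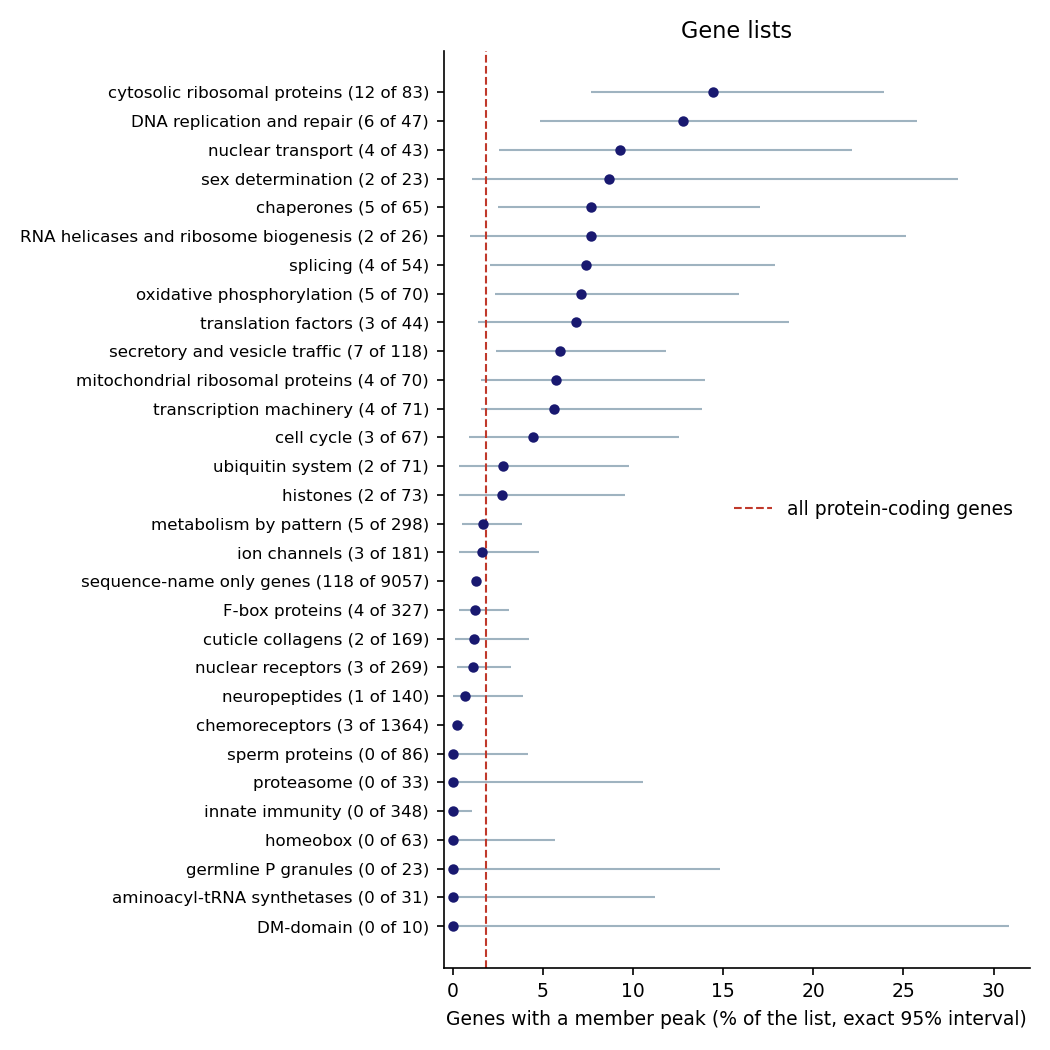
Share of each of 30 gene lists with a member peak (points, x axis in percent) with exact 95% intervals (bars), and the 1.86% of all protein-coding genes as a dashed line. Cytosolic ribosomal protein genes (14.5%) lie farthest right, and chemoreceptor (0.220%) and innate immunity genes (0 of 348) lie left of the line.

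Chemoreceptor and innate immunity genes were the lists whose intervals lay wholly below 1.86%, apart from genes known only by a sequence name. Chemoreceptor genes, which encode receptors of sensory neurons, had 3 of 1364 (0.220%, interval 0.0454 to 0.641): srx-28 (84.0), sre-23 (81.1) and srh-2 (60.6). The peak at sre-23 was by a snoRNA gene. Innate immunity genes had 0 of 348, which allows a share of up to 1.05% by the exact interval. The other large families had intervals that include 1.86%. F-box genes had 4 of 327 (1.22%, interval 0.334 to 3.10), fbxl-2 (153.1), fbxb-58 (130.3), fbxa-83 (88.9) and fbxb-72 (74.4). Nuclear receptors had 3 of 269 (1.12%, 0.231 to 3.22), nhr-35 (81.0), nhr-91 (77.0) and nhr-132 (72.2). Cuticle collagens had 2 of 169 (1.18%, 0.144 to 4.21), col-95 (83.6) and col-63 (83.5). Ion channels had 3 of 181 (1.66%, 0.343 to 4.77), lgc-22 (74.8), twk-32 (68.7) and kvs-3 (13.3). The value at kvs-3 is that of the weaker call of an overlapping pair. Ion channels had 2 genes without such weaker calls, and 2 with peaks over 500 bp from tRNA genes only. Neuropeptides had 1 of 140 (0.714%, 0.0181 to 3.92), ins-39 (106.3). The single lists had 1 and 0 chemoreceptor genes, 4 and 1 F-box genes, 1 and 0 ion channel genes and 1 and 0 neuropeptide genes, and neither had a nuclear receptor or a collagen gene. Outside F-box genes and ins-39, none of the members in these families reached the median of 88.5.

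Several lists had no member. There were 0 of 10 DM-domain genes, among them dmd-9 itself, 0 of 63 homeobox genes, 0 of 86 sperm protein genes and 0 of 23 P granule genes. There were also 0 of 33 proteasome genes and 0 of 31 aminoacyl-tRNA synthetase genes, each with 1 in the conservative list. Peaks with 5' ends on both strands, which the rule leaves out, stood at 1 proteasome, 2 synthetase, 1 sperm protein and 1 P granule gene. They stood at 0 homeobox and 0 DM-domain genes. The exact intervals of these 6 lists reached up to between 4.20% (sperm proteins) and 30.8% (DM-domain), above 1.86%. A list of metabolism genes picked by name pattern had 5 of 298 (1.68%, and 2 in each single list). They were gst-27 (128.2, by a snoRNA gene), for a glutathione transferase, dhs-8 (122.2), acdh-10 (78.8) and pck-2 (72.5), with 1 more below these.

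Product names gave a view over all genes, with words chosen after the values were seen. Genes of the lists above were counted again here, among them mog-4, mog-3, cox-5A, srx-28, sre-23 and srh-2. Of 49 genes whose RefSeq product names splicing or the spliceosome, 6 had a member, and of 36 with tubulin in the product 5 had one, tba-2, ttll-4, Y39A1A.9, tbb-2 and tba-7. Products with kinase had 15 of 568 (2.64%) and those with mitochondrial 15 of 299 (5.02%). Products with C-type lectin had 0 of 230, and those of G-protein coupled or serpentine receptors had 4 of 1479 (0.270%). Genes known only by a sequence name had 118 of 9057 (1.30%), with a median signal of 88.5, the same as all members to 3 digits.

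Members lay on all 6 nuclear chromosomes. Chromosome I held 67 (18.0%), II 55 (14.8%), III 69 (18.5%), IV 48 (12.9%), V 73 (19.6%) and X 60 (16.1%, exact 95% interval 12.5 to 20.3). Protein-coding genes have 14.4% of their number on I, 17.3% on II, 13.2% on III, 16.4% on IV and 13.7% on X, and the remainder on V. Members thus stood above the genes on I, III and X and below them on II, IV and V, and the genes' share lay outside the members' interval on III and V. The replicates' own lists gave X a like share, 14.9% of the members in the replicate 1 list and 14.9% of those in the replicate 2 list.

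On the X chromosome the share of members was above that of peaks with 5' ends on both strands. Only 3 of those 176 peaks (1.70%, interval 0.353 to 4.90) were on X, as against 60 of 372 members. Gene arrangement moves in the same direction. Of all positions at the members' median distance, 268 bp upstream of a 5' end, those with 5' ends on 1 strand in reach had 15.9% of their number on X, and those with 5' ends on both strands had 5.05%. Its part in the difference was not tested. Strong members on X, chosen after their values were seen, were pdi-6 (229.0), nspc-17 (197.6), puf-9 (195.6), an RNA-binding protein gene, and hsp-3 (193.8).

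**Figure D4:**
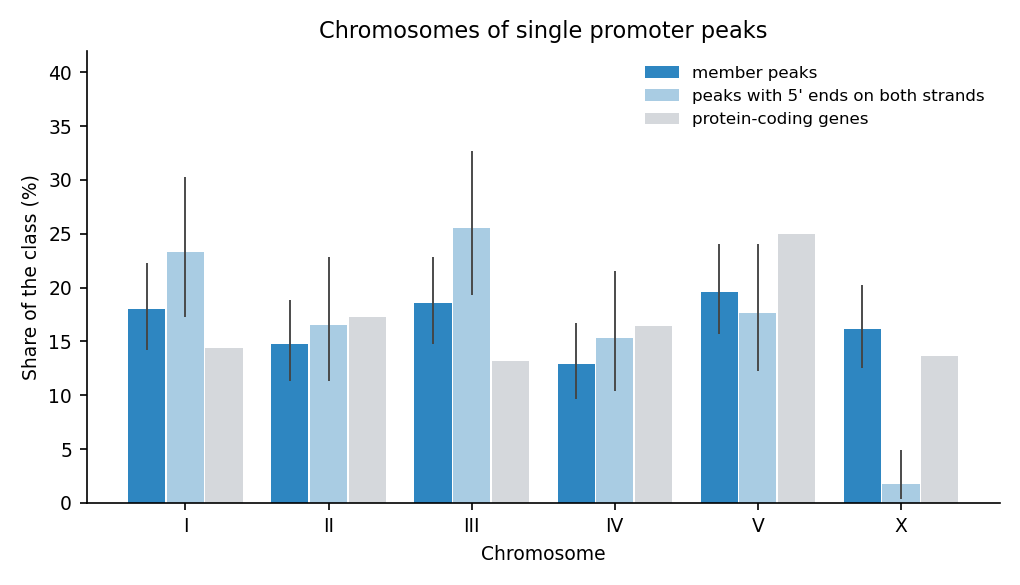
Share of member peaks, of peaks with 5' ends on both strands and of protein-coding genes on each chromosome (y axis in percent), with exact 95% intervals as bars for the peaks. On X the members stand at 16.1% and the peaks with 5' ends on both strands at 1.70%.

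Summits of members stood in a narrow stretch rich in G and C. Over the 50 bp to each side of the summit, G and C made up 49.3% of bases. From 200 to 300 bp away from it on both sides they made up 35.3%, and windows placed 268 bp upstream of all protein-coding 5' ends had 34.4%. In bins of 20 bp the share peaked just past the summit at 51.4% and had fallen to 36.9% at 100 to 120 bp downstream of it. The median window had 49.5% G and C, with quartiles of 44.6% and 54.5%. The median over the windows upstream of all 5' ends was 33.7%. The strongest 124 members had a median of 50.5%, the middle 124 of 49.5% and the weakest 124 of 47.5%.

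**Figure D5:**
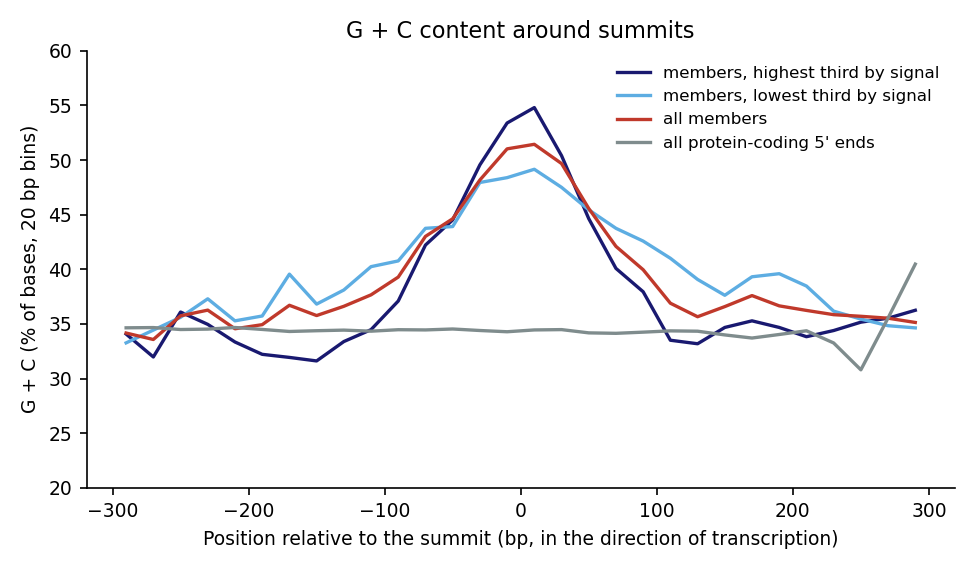
Share of G and C in 20 bp bins (y axis) from 300 bp before to 300 bp after the summit (x axis, in the direction of transcription), for all members, the 124 strongest and 124 weakest of them, and windows 268 bp upstream of all protein-coding 5' ends. Members peak at 51.4% next to the summit, and the 5' ends stay near 34.4% in the centre.

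High G and C content was not limited to members. Peaks with 5' ends on both strands had the same median of 49.5%, peaks by tRNA genes 51.5% and the other joint peaks 48.5%. Members upstream and downstream of the 5' end had medians of 49.5% and 49.0%. The control library was not used here, and whether it had the same composition was not tested.

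CG dinucleotides were frequent. A member window had on average 7.31 of them, and a window at peaks with 5' ends on both strands had 7.47. The windows 268 bp upstream of all protein-coding 5' ends, called all 5' ends from here on, had 3.06. The ratio to the number expected from the C and G in the same windows was 1.21 at members and 1.03 at all 5' ends. It was 1.31 at the strongest 124 members, 1.09 at the weakest 124 and 1.27 at peaks with 5' ends on both strands. Of the 2080 6-base words (each counted with its reverse complement), the 15 with the largest excess all hold CG except GAGAGA and GCACAC. The word AACGCG was in 14.5% of member windows and 2.25% of windows at all 5' ends, GCGCCA in 13.7% and 1.73%, CGTCTC in 15.1% and 3.20%, and GCGCAC in 13.7% and 1.89%. The leading words overlap each other in letters (AACGCG and ACGCGC, for example), so they are not separate signals. At least 1 of the 15 leading words was in 76.1% of member windows and 28.2% of those at all 5' ends. At peaks with 5' ends on both strands the share was 79.5%. Among the strongest 124 members it was 87.9% and among the weakest 124 it was 64.5%, and the words were chosen on the member windows.

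Longer words were each in few members. Of 8-base words, AGACGCAG was in 26 members (6.99%) and in 0.971% of windows at all 5' ends, AAACGCGC in 23 (6.18%) and 0.536%, and GCGCCAGC in 21 (5.65%) and 0.210%. The first of them stands in the window of cnk-1. No 8-base word was in more than 26 of the 372 windows.

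Known motifs were searched by their letters on both strands, and a match is a description of these letters only. Shares at all 5' ends are again those of windows 268 bp upstream, so they are not rates at the 5' end itself. GAGAGA, a GA repeat, is itself one of the 15 leading words chosen on these windows, and was in 63 windows (16.9%) and in 6.19% at all 5' ends. The bZIP-type letters TGACGT were in 6.45% and 3.26%, the E2F site GCGGGAA in 4.03% and 1.20%, and the GC box GGGCGG in 5.38% and 2.14%. Member windows had 49.3% G and C and those at all 5' ends 34.4%, and the part of this in these counts was not tested. At peaks with 5' ends on both strands, GAGAGA was in 18.2%, TGACGT in 2.84%, GCGGGAA in 1.70% and GGGCGG in 7.39%. Among all joint peaks that were not members the shares were 14.9%, 2.68%, 1.99% and 6.26%, in that order. The DM-domain core TGTTGC was in 24 windows (6.45%, exact 95% interval 4.18 to 9.45) and in 4.30% at all 5' ends. At peaks with 5' ends on both strands it was in 6.82%, and among all joint peaks that were not members in 4.37%. It was in 8 of the strongest 124 members, 13 of the middle 124 and 3 of the weakest 124. The DMRT-type letters ACATTGT were in 2.15% and 1.91%, and in 0 windows of the list without replicate 2.

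AT-rich motifs of worm promoters were rarer at members, and at the other peaks, than in the windows placed 268 bp upstream of all 5' ends. The TATA box letters TATAAA were in 11 windows (2.96%, and 5.99% in the list without replicate 1) and in 12.9% at all 5' ends, the GATA site TGATAA in 3.49% and 10.4%, and the T-block TTTTCT in 20.2% and 31.1%. The acceptor TTTCAG, also used in trans-splicing, was in 9.68% and 17.8%. The letters of the tRNA box B, GGTTCGA, were in 1.08% of member windows and in 10.4% of all joint peaks that were not members, those by tRNA genes included. The remaining motifs ran at the following shares in members and at all 5' ends: CTTCTTC 2.15% and 2.83%, CACGTG 2.69% and 1.57%, CAGCTG 2.96% and 1.80%, and TTCNNGAA 2.96% and 6.57%. A low share of T and A in the windows goes with these counts, 26.7% T at members and 34.3% at all 5' ends, and its part was not tested.

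Some strong members lay in sequence that occurs more than once. A second copy of the peak sequence elsewhere in the genome, at 90% identity or more over at least 50% of its length, was found for 35 members (9.41%, exact 95% interval 6.64 to 12.8). The share was 18 of the strongest 124, 11 of the middle 124 and 6 of the weakest 124. The median signal was 114.2 with a copy and 87.1 without. At mog-4 and rpa-2 there were 7 other copies each, at cnk-1 3, at mtcu-2 19, at Y62F5A.12, whose product holds a reverse transcriptase domain, 68 and at rps-24 74. H41C03.3 and npp-6 had 1 other copy each. No copy was found for eel-1, rpl-3, rpl-35, cox-5A, C47E8.4 or K12H4.5. Another joint peak overlapped a copy at 23 of the 35. Where copies are near-identical, reads cannot be placed with certainty in either, and how the authors' alignment treated such reads is not given in the sources used here.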

How the data were processed

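ChIP-seq peak lists of 2 biological replicates in 1 group were used. The authors deposited thresholded and ranked lists of each replicate, of the pooled reads (joint) and of the replicates against each other (conservative), on ce11 per the labels. The aligner and the peak caller were not given in the sources used here. The deposited signal is the caller's enrichment value per peak and is not scaled between lists. The authors' −log10 values are the q value and, in ranked lists, the global IDR, which is 0.01 or under throughout the joint list. The deposited summit offset gives each summit. A further 32 columns of paired calls in the ranked lists have no map to a replicate and were not used. No counts or alignments were used, so depth is unknown, and exact (Clopper-Pearson) intervals cover counting error between peaks only.

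Gene 5' ends came from Ensembl release 115 (19973 nuclear protein-coding genes, 612 tRNA genes), product names from RefSeq by WormBase identifier. A replicate value is the signal of the overlapping call (at least 1 bp) with the nearest summit. Copies were sought with blastn 2.17.0. Other steps used Python 3.11.15 with pandas 2.3.3, numpy 2.4.6, scipy 1.17.1 and matplotlib 3.10.9, and the position rule was tested on simulated data. With 1 group and members chosen by position, no test was made. Members, the 30 gene lists and the 15 motifs were chosen with earlier results of these data known, and families that did not belong were removed from 2 lists (translation factors and ion channels) later. Named genes are those of the 20 strongest members, up to 4 per list by signal, those at the window edges and just outside, the 6 most unequal replicate ratios, genes with 3 or more members, and dmd-9. Exceptions are said in the text.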

Additional observations from a re-analysis of the deposited data

How the results depend on the processing

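Peak choice moved the counts most. Members numbered 167 to 174 and their genes 170 to 175 in the 2 single-replicate lists, 138 and 142 at the stricter global IDR (0.001 or under), and 196 and 203 without peaks of q above 0.05. Of the 371 genes, 167 and 168 were also found in the lists without replicate 1 and without replicate 2. Listed genes with a member numbered 84, with 41 to 47 in the single lists, 41 at the stricter IDR and 55 by q. The median position was −270 to −251.5 bp in the single lists, −254 bp in the conservative list, −252.5 bp by q and −212.5 bp with a window of 500 bp upstream to 100 bp downstream. The share upstream was 93.4% to 96.0% in the single lists, 97.1% at the stricter IDR and 94.4% by q. The median signal was 67.3 to 73.9 in the single lists, which are not scaled to the joint list, 152.5 at the stricter IDR, 131.0 by q and 95.8 with the narrower window. The share in both replicate lists was 70.7% to 75.4%, 90.6%, 62.8% and 39.1% in the same order, where a single list holds by construction only peaks of 1 replicate. The other alternatives (the conservative list, transcript 5' ends, a distance of over 500 bp from tRNA genes and removal of peaks by other small RNA genes) kept the other values within their limits.

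Chosen after seeing the data, leaving out the weaker of overlapping calls gave 357 members and leaving out members with a second copy gave 337. In the latter, rho between replicates was 0.564 and not 0.606. Single-list and single-motif counts moved in 75 of 330 and 15 of 180 alternatives. Depth is unknown, so it cannot be said which weak members more reads would keep.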
